A study of Mus musculus with 4 samples.

Results

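The genes described here are the heat shock chaperones of the cytosol and mitochondria with their helper proteins, measured in female mouse liver after knockdown of Cux2. They were chosen by symbol: the Hspa, Hspb, Hspd, Hspe, Hsph and Hsp90a families, the J proteins Dnaja, Dnajb and Dnajc, the Cct and Bag families, and Hsf1, Stip1, St13, Ahsa1, Chordc1 and Fkbp4, without the unfolded protein response genes Hspa5, Dnajb9 and Dnajc3. Of 85 such genes with a named probe, 84 were measured, among 25095 genes tested. Dnajb3 did not reach the limit for being measured, which was a probe well above background in at least 2 of 8 channel readings, and Dnajb8, Dnajc5g and Cct8l1 met it with exactly 2 readings each. Because the choice went by symbol, it also holds proteins of the endoplasmic reticulum (ER), such as Dnajc10, Dnajc1, Dnajb12 and Hspa13.

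Each of 4 Agilent 2-colour arrays compared liver RNA pooled from Cux2 siRNA-treated mice with RNA pooled from mice that received a non-specific siRNA. All animals were female CD-1 mice, an outbred stock, aged 8 weeks. At day 5 a treated pool was made from 3 mice for replicate 1 and from 2 mice for replicate 2, at day 8 from 2 mice each time, and the sample descriptions give 6 control mice per array, where the design text has pools of 6 or 7. When the control mice were killed, and which control pool each array carried, is not given in the labels, and the control pools recur, so the 4 ratios are not fully independent. In both replicates 1 the treated pool carried Alexa 647 and in both replicates 2 Alexa 555, so replicate number and dye orientation cannot be told apart. Between 71.1% and 74.6% of the probes stood well above background per channel, with 0 saturated spots. Cux2, a homeobox transcription factor with female-biased expression in mouse liver, had log2 ratios of -1.91, -1.70, -1.07 and -1.20 and stood at 28.6% of the control level at day 5 and at 45.6% at day 8.

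Heat shock proteins are molecular chaperones: they bind unfolded or partly folded proteins, keep them from aggregating and help them reach their native form. HSP70 proteins are loaded with clients by J proteins and unloaded by nucleotide exchange factors such as the HSP110 and BAG proteins, and HSP90 finishes a narrower set of clients, steroid receptors and kinases among them, together with cochaperones. The transcription factor HSF1 drives many of these genes after heat or proteotoxic stress by binding heat shock elements, which are inverted repeats of the unit GAA. All ratios are log2 values of Cux2 siRNA over non-specific siRNA, and they compare the pools for 1 gene, not the levels of different genes. Where 4 values are given, their order is day 5 replicate 1, day 5 replicate 2, day 8 replicate 1 and day 8 replicate 2. Means, standard errors (SE) and adjusted p-values come from 1 limma fit over the 4 arrays, and a gene is said to have risen or fallen where its Benjamini-Hochberg adjusted p over all 25095 genes was under 0.05. In whole liver, a change in the number of cells that make an RNA and a change in RNA per cell cannot be told apart.

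Over both days 30 of the 84 chaperone genes rose, 11 fell and 43 did not pass the test. Of all genes tested, 31.1% passed over both days, 14.8% rising and 16.3% falling, and of the 14066 with a gene symbol, as the members all have, 34.6% passed, 13.1% rising and 21.6% falling. The rises were the larger changes, with a median size of 0.50 and a largest one of 1.44. Hsph1, Hsp90aa1, Hspa8 and Chordc1 rose at least 2-fold, while 16 of the 30 rose less than 1.5-fold. A rise of at least 2-fold that passed the test occurred in 0.642% of all genes. All 11 falls were smaller than 1.5-fold and their median size was 0.30. The median over all 84 members was 0.04, against 0.00 over all genes tested. Most of the rises were in the cytosolic HSP70 and HSP90 machinery and the chaperonin ring, and no member of the large J protein class C rose. The number that rose was 15 when day 8 replicate 2 was left out and 17 when day 5 replicate 2 was, and the number that fell was between 3 and 6 when any 1 array was left out. With median centring in place of loess 1 member, Hsph1, passed. Each member is represented by its brightest probe, and of 37 members with several probes 9 had probes that differed in passing, over all probes: Hspa4, Hsp90ab1, Hspa9, Hspa12a, Dnaja4, Bag4, Dnajc1, Dnajc28 and Hspb2.

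**Figure D1:**
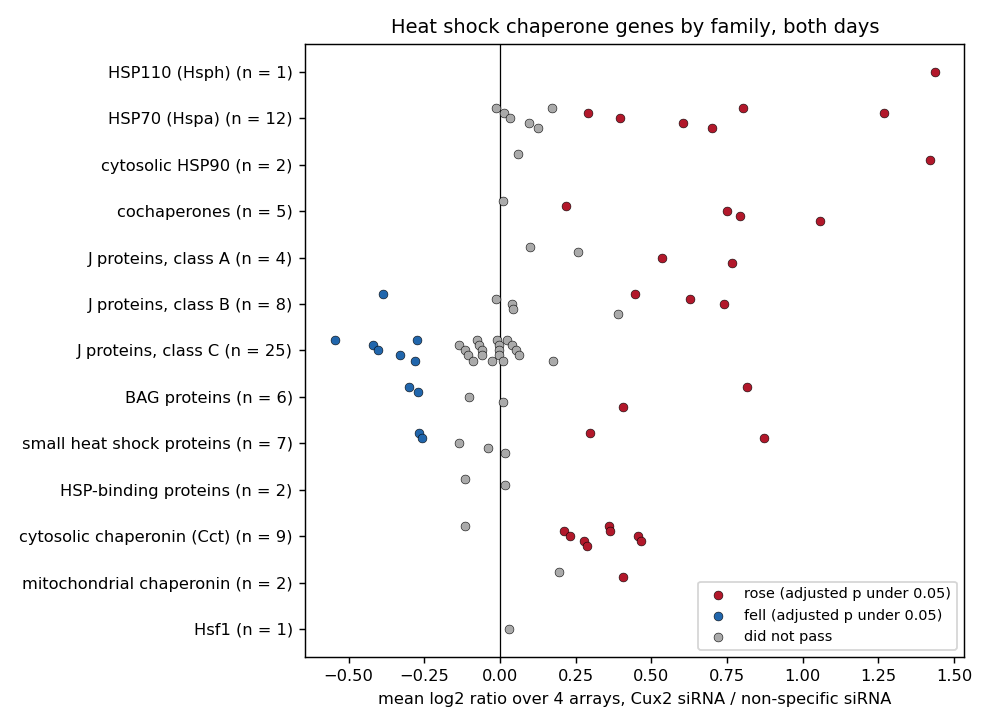
Each point is 1 chaperone gene placed by its mean log2 ratio over 4 arrays, Cux2 siRNA over non-specific siRNA, in rows by family, and coloured by whether it rose, fell or did not pass at an adjusted p under 0.05. HSP110, HSP70, HSP90 and cochaperone genes reach furthest to the right, and 8 of 9 cytosolic chaperonin genes form a compact group of rises. The falls lie mainly among the J proteins of class C, the largest family, whose share of falls was near that of all genes with a symbol.

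Hsph1, the cytosolic HSP110 that recharges HSP70 and helps it to take aggregates apart, had the highest mean ratio of all members. Its intensity was 21838, 28856, 19058 and 8354 in the treated pools, against 8417, 8538, 8262 and 3155 in the control pools of the same arrays. The treated channel was brighter on all 4 arrays, with log2 ratios of 1.38, 1.76, 1.21 and 1.40. Hsph1 rose by 1.44 over both days (SE 0.08, adjusted p = 0.0015, 2.71-fold), by 1.57 at day 5 (adjusted p = 0.00596) and by 1.31 at day 8 (adjusted p = 0.00938). Both channels of its spot were dimmer on day 8 replicate 2 than on the other arrays, so that the treated intensity there lay among the control intensities elsewhere, while the ratio on that array was close to the mean.

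Hsp90aa1, the stress-inducible cytosolic HSP90, had treated intensities of 87298, 107697, 70597 and 32504, against 29540, 34288, 35092 and 11822 in the controls. Its log2 ratios were 1.56, 1.65, 1.01 and 1.46, and it rose by 1.42 (SE 0.09, adjusted p = 0.00167, 2.68-fold). Its partner Hsp90ab1, the constitutive cytosolic HSP90, did not pass on its brightest probe, with log2 ratios of 0.33, -0.02, 0.09 and -0.15 (mean 0.06, SE 0.08, adjusted p = 0.634). On that probe the treated intensities, 60712, 53986, 54503 and 50799, overlapped the control intensities, 48374, 54713, 51350 and 56484. A second, dimmer Hsp90ab1 probe had log2 ratios of 0.43, 0.29, 0.16 and 0.27 and rose by 0.29 (adjusted p over all probes = 0.0174), and the mean of both probes was 0.17 and did not pass (adjusted p = 0.0902). The Hsp90ab1 probes thus differ in their call. Every ratio of Hsp90aa1 lay above every ratio of either Hsp90ab1 probe, and the difference between the genes was not tested.

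Hspa8, the constitutive cytosolic HSP70 known as HSC70, had treated intensities of 133605, 166822, 112920 and 56051, against 47942, 75750, 47142 and 24392 in the controls. The log2 ratios were 1.48, 1.14, 1.26 and 1.20, and Hspa8 rose by 1.27 (SE 0.07, adjusted p = 0.00144, 2.41-fold). A dimmer second probe of Hspa8 had log2 ratios of 1.03, 1.36, 0.92 and 1.28. This second probe was not dimmer on day 8 replicate 2, where it read 68628 in the treated and 28215 in the control pool, so that on it every treated value, from 50836 to 70968, lay above every control value, from 26955 to 28215. The spots of Hsph1, Hsp90aa1 and the brighter Hspa8 probe were all dimmer on day 8 replicate 2. Without that array the day 8 calls were lost, at adjusted p-values of 0.0764 for Hsph1, 0.0617 for Hsp90aa1 and 0.0686 for Hspa8, and without day 5 replicate 2 the day 5 call of Hsp90aa1 was lost (adjusted p = 0.0594). The calls of the 3 genes over both days remained whichever array was left out, at adjusted p-values up to 0.00979.

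**Figure D2:**
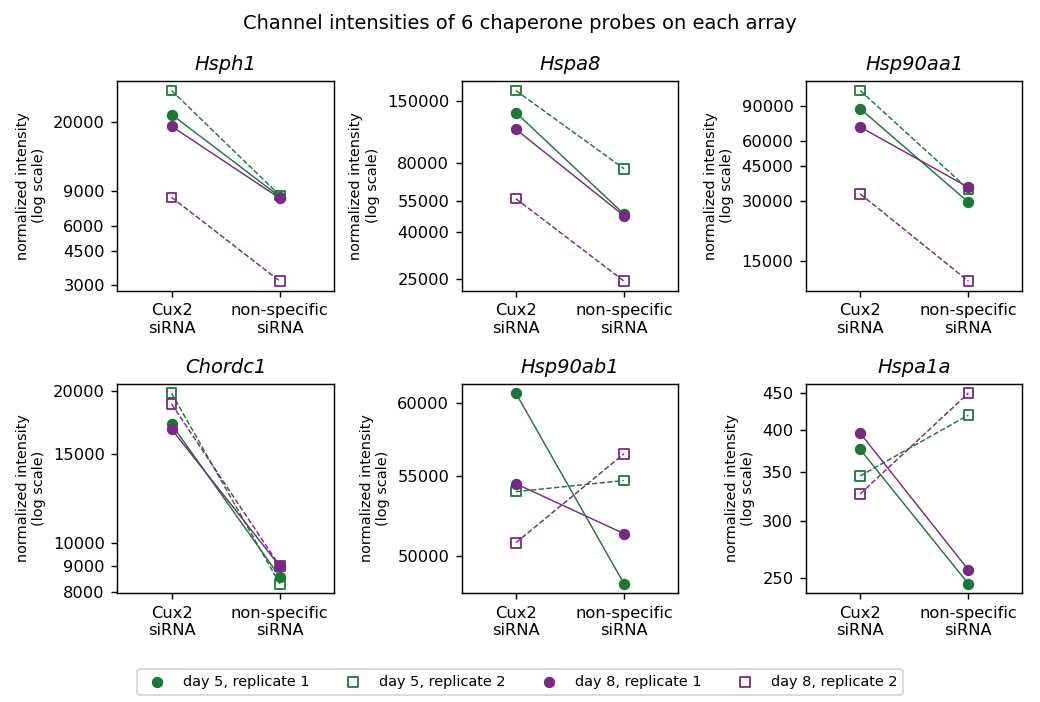
Normalized intensity on a log axis in the Cux2 siRNA channel (left) and the non-specific siRNA channel (right) of each array, joined by a line per array, for 6 chaperone probes. Every line of Hsph1, Hspa8, Hsp90aa1 and Chordc1 is higher at its treated end, with day 8 replicate 2 shifted down in both channels for the first 3 of these genes, while the lines of Hspa1a and of the brightest Hsp90ab1 probe run in both directions.

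The stress-inducible HSP70 pair Hspa1a and Hspa1b, which textbooks place among the genes most strongly induced by heat, did not pass. Hspa1a had treated intensities of 376, 346, 397 and 327, against 246, 420, 257 and 450 in the controls. Its log2 ratios split by replicate number, with 0.62 and 0.63 in replicates 1 and -0.28 and -0.46 in replicates 2, and averaged 0.13 (SE 0.23, adjusted p = 0.735). Hspa1b had log2 ratios of 0.63, 0.02, 0.05 and -0.31 and a mean of 0.10 (SE 0.12, adjusted p = 0.613). The Hspa1a and Hspa1b transcripts are near-identical, so the probes may read both genes.

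In the remaining HSP70 family, 5 other genes rose. Hspa4l, an HSP110-like exchange factor, rose by 0.80 (log2 ratios of 0.80, 1.08, 0.55 and 0.78, SE 0.07, adjusted p = 0.00329). Its close relative Hspa4 did not pass on its brightest probe (0.01, adjusted p = 0.921), but a second Hspa4 probe had log2 ratios of 0.79, 1.09, 0.48 and 0.88 and a mean of 0.81 (adjusted p over all probes = 0.00494), and the dimmest of its probes averaged -0.04. These probes of 1 gene disagreed by more than those of any other member, and Hspa4 was singled out for this after its values were seen. Hspa2, an HSP70 best known from male germ cells, rose by 0.70, with log2 ratios of 1.03, 0.23, 0.91 and 0.64 (adjusted p = 0.0234), and Hspa13, an ER-associated HSP70, rose by 0.60 (adjusted p = 0.0186). Hspa2 lost its call without either day 8 array and Hspa13 without either replicate 2, at adjusted p-values up to 0.0781 and 0.0686. The mitochondrial HSP70 Hspa9, which pulls proteins across the inner membrane and folds them in the matrix, rose by 0.29 (log2 ratios of 0.19, 0.39, 0.13 and 0.45, adjusted p = 0.0454), and Hspa12a rose by 0.40 (adjusted p = 0.0354). With an array left out Hspa9 and Hspa12a each kept the call in 1 of 4 fits. The ratios of Hspa9 were higher in both replicates 2 than in both replicates 1. A second Hspa9 probe averaged 0.23 and the dimmest of 3 Hspa12a probes 0.09, and neither passed.

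Of the 5 HSP70 and HSP90 cochaperones in the set, 4 rose. Chordc1, an HSP90-binding CHORD-domain protein, had treated intensities of 17201, 19832, 16826 and 18881, against 8574, 8305, 8998 and 9004 in the controls. Every treated value of Chordc1 lay above every control value. The log2 ratios were 1.00, 1.26, 0.90 and 1.07, and Chordc1 rose by 1.06 (SE 0.07, adjusted p = 0.00175, 2.08-fold). Fkbp4, the immunophilin FKBP52 of steroid receptor complexes, rose by 0.79 (log2 ratios of 0.87, 0.87, 0.79 and 0.65, adjusted p = 0.00178). Stip1, known as HOP, which hands clients from HSP70 to HSP90, rose by 0.75 (log2 ratios of 0.83, 0.79, 0.74 and 0.64, adjusted p = 0.00185). Ahsa1, an activator of the HSP90 ATPase, rose by 0.22 (adjusted p = 0.0274) and lost the call whenever 1 array was left out (adjusted p-values of 0.0823 to 0.131). St13, the HSP70-interacting protein HIP, had log2 ratios of -0.13, 0.12, -0.06 and 0.11 and did not pass (0.01, adjusted p = 0.936).

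Other HSP90 cochaperones outside the symbol rule were mixed: of 15 measured, 5 rose and 1 fell, with a median of 0.03. Among all genes with a symbol 13.1% rose and 21.6% fell. Ahsa2, the second Ahsa gene, rose by 0.95 (log2 ratios of 0.95, 1.09, 0.84 and 0.94, adjusted p = 0.00144). Ppid, the immunophilin cyclophilin 40, rose by 0.79 (adjusted p = 0.0067), and the p23 cochaperone Ptges3 rose by 0.30 (adjusted p = 0.0369). Cdc37, which brings kinases to HSP90, fell by 0.25 (adjusted p = 0.0181), whereas the related Cdc37l1 rose by 0.41 (adjusted p = 0.0302). With the scanner's processed signals or the authors' log10 values, 3 of the 15 rose and 0 fell, so the call of Cdc37 was lost. Fkbp5, the glucocorticoid-induced relative of Fkbp4, had a mean of -0.32 and did not pass (adjusted p = 0.0676). Between 2 and 3 of the 15 rose when any 1 array was left out.

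**Figure D3:**
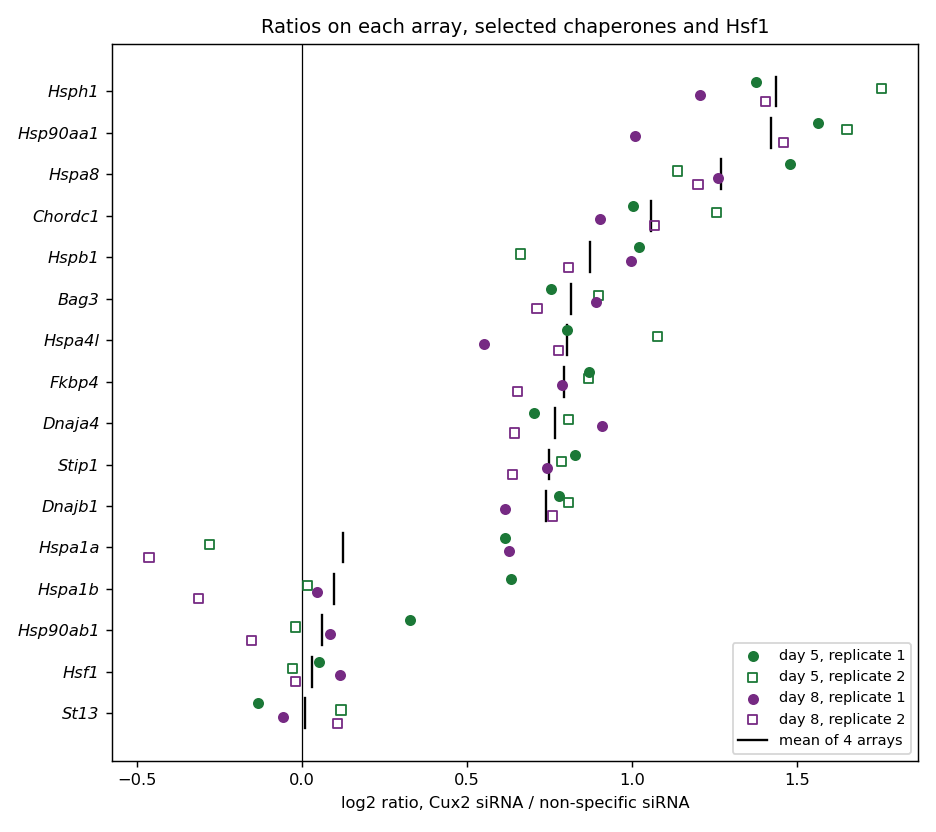
Log2 ratios, Cux2 siRNA over non-specific siRNA, on each of 4 arrays (symbols by day and replicate) and their mean (vertical bar) for 16 chaperone genes. The 11 upper genes lie right of 0 on every array, from 0.55 to 1.76, whereas Hspa1a, Hspa1b, Hsf1, St13 and the brightest Hsp90ab1 probe lie on both sides of 0.

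The letters of heat shock elements are shown for every member with a run of 3 or more units, and for selected members with a shorter match. RefSeq promoters of the GRCm38.p6 build, from 250 bases before to 50 after a gene's start, were held for 66 of the 84 members, among them 25 of the 30 that rose, and Hspa8 and Hsp90aa1 are not among them. Both strands were searched for GAANNTTC and TTCNNGAA, which are 2 units of the element, and for heat shock elements of 3 units, in which GAA and TTC alternate with 2 bases between them and which therefore contain the shorter matches. A gene was counted where any of its promoters held the match. A run of 3 units was found in 5 members (7.58% of 66), against 179 of all 27025 genes with a promoter held (0.662%). The 5 were Hsph1, Chordc1 and Hspe1, which rose, and Hspd1 and Dnajb6, which did not pass. Capitals mark the GAA and TTC units.
Hsph1, chr5:149636280-149636308, minus strand: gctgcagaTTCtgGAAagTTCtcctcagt
Chordc1, chr9:18292260-18292288, plus strand: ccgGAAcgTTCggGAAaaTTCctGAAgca
Hspe1, chr1:55088054-55088081, plus strand: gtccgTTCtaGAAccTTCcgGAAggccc
Hspd1, the same bases, minus strand: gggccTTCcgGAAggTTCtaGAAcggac
Dnajb6, chr5:29735844-29735872, plus strand: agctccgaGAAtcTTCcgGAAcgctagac
The Chordc1 run has 5 units in a row and spans the annotated start, from base -4 to base 19. The Hsph1 run lies after the start, from base 16 to base 28, or from base 37 to base 49 counted from a second annotated start. Hspd1 and Hspe1 are neighbours that are read in opposite directions from 1 shared promoter, and the 2 strands show the same run of 4 units. The count of 5 members is of genes and holds this run for both of them.

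The shorter 2-unit match was found in 23 of 66 members (34.8%), against 17.0% of all genes with a promoter held. It was found in 13 of the 25 members that rose, in 1 of 8 that fell and in 9 of 33 that did not pass. The windows of 3 genes picked from the 13 that rose are shown beside those of Hspa1a and Hspa1b, which did not pass and are identical to each other. The promoters of Dnaja4 and Hspb1 hold 2 matches each, and the first is shown.
Fkbp4, chr6:128438790-128438817, minus strand: cgcttctctaGAAagTTCtccgctcccg
Dnaja4, chr9:54699459-54699486, plus strand: gaacctccgcGAAcgTTCtgggcctatg
Hspb1, chr5:135887792-135887819, plus strand: ttcaacaagaGAAgtTTCcagatggggg
Hspa1a, chr17:34972243-34972270, minus strand: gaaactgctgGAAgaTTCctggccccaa
Hspa1b, chr17:34959325-34959352, minus strand: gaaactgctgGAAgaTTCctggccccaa
A match is a description of letters and not evidence of binding.

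Hsf1, the heat shock factor itself, did not pass, with log2 ratios of 0.05, -0.03, 0.12 and -0.02 and a mean of 0.03 (SE 0.05, adjusted p = 0.716). An RNA ratio does not report HSF1 activity, which is set largely at the protein. Of 4 other genes of the heat shock factor family and its regulators, Hsf5, a relative known from the testis, rose by 0.60 (log2 ratios of 0.48, 0.50, 0.67 and 0.75, adjusted p = 0.00251), and Hsf2, Hsf4 and Hsbp1 did not pass. Other genes that answer to temperature went both ways, with 2 of 11 rising and 3 falling. These counts were near the shares of all genes with a symbol, 13.1% rising and 21.6% falling. The cold-inducible RNA-binding protein gene Cirbp had log2 ratios of -1.80, -1.65, -1.52 and -1.44 and fell by 1.60 (SE 0.05, adjusted p = 0.000571), while Rbm3, its cold-inducible relative, rose by 0.34 (adjusted p = 0.00836). Serpinh1, the collagen chaperone HSP47 of the ER, fell by 0.76 (adjusted p = 0.00743). Of 9 stellate cell and fibroblast markers 6 fell and 2 rose, and a link with Serpinh1 was not tested.

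Among the J proteins, which stimulate the HSP70 ATPase through their J domain, the 3 classes differed in their counts. In class A, 2 of 4 genes rose and none fell, in class B 3 of 8 rose and 1 fell, and in class C none of 25 rose and 6 fell. Of all genes with a symbol, 13.1% rose and 21.6% fell, so the class C share of falls, 24%, was near that of all such genes. Dnajb1, the HSP40 partner of HSC70 and HSP70, rose by 0.74 (log2 ratios of 0.78, 0.81, 0.61 and 0.76, SE 0.05, adjusted p = 0.00196). Dnajb4 rose by 0.63 (0.53, 0.88, 0.34 and 0.76, adjusted p = 0.0116) and Dnajb2, which carries ubiquitin-interacting motifs, by 0.45 (0.41, 0.53, 0.42 and 0.43, adjusted p = 0.00508). Dnajb4, unlike Dnajb1, had higher ratios in both replicates 2 than in both replicates 1, and so split by dye orientation. Dnajb6 also had higher ratios in replicates 2 (0.66 and 0.53) than in replicates 1 (0.11 and 0.25), and its mean of 0.39 did not pass (adjusted p = 0.0539). Its 3 probes averaged 0.39, 0.37 and -0.14.

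In class A, Dnaja4 rose by 0.77 (log2 ratios of 0.70, 0.81, 0.91 and 0.64, adjusted p = 0.00287). A second and much dimmer Dnaja4 probe averaged 0.11 and did not pass. Dnaja1, the main farnesylated HSP40 of the cytosol, rose by 0.54 (0.37, 0.79, 0.31 and 0.66, adjusted p = 0.0183), and its call was lost without either replicate 2 (adjusted p-values up to 0.0663). Dnaja1, unlike Dnaja4, had higher ratios in both replicates 2 than in both replicates 1. The mitochondrial Dnaja3 averaged 0.10 and did not pass (adjusted p = 0.311).

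The class C genes, which share the J domain and little else, ranged from -0.54 to 0.18 over both days with a median of -0.06. Of the 25, 12 were lower in the treated pool on all 4 arrays, against 26% of all genes tested and 33.4% of those with a symbol. Dnajc9, a J protein and histone chaperone of replicating cells, had log2 ratios of -0.62, -0.69, -0.53 and -0.33 and fell by 0.54 (SE 0.06, adjusted p = 0.00435). Dnajc10, an ER disulfide reductase also known as ERdj5, fell by 0.42 (-0.45, -0.42, -0.28 and -0.53, adjusted p = 0.00948). Dnajc28 fell by 0.40 (-0.55, -0.34, -0.37 and -0.35, adjusted p = 0.00874), and a second Dnajc28 probe averaged -0.03. Dnajc25, Dnajc22 and the ER membrane protein Dnajc1 fell by 0.33, 0.28 and 0.28, and of these 3 genes each kept the call in at most 1 of 4 fits with an array left out. In class B, Dnajb12, an ER membrane J protein, fell by 0.39 (adjusted p = 0.0268) and kept the call in 1 of the 4 fits. The auxilin Dnajc6, the synaptic Dnajc5 and the ribosome-associated Dnajc2 did not pass, at -0.03, 0.00 and 0.04.

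The 6 genes with a Bag symbol, a family best known for releasing nucleotide from HSP70, moved in both directions. In all, 2 rose and 2 fell, beside 13.1% rising and 21.6% falling among all genes with a symbol. Bag3, a stress-inducible BAG protein that links HSP70 to small heat shock proteins and autophagy, rose by 0.81 (log2 ratios of 0.76, 0.90, 0.89 and 0.71, SE 0.06, adjusted p = 0.00213). Bag4 fell by 0.30 (-0.32, -0.25, -0.22 and -0.41, adjusted p = 0.0184), and Bag1 fell by 0.27 (-0.34, -0.27, -0.29 and -0.18, adjusted p = 0.0183). With an array left out Bag1 lost its call in all 4 fits (adjusted p up to 0.0888) and Bag4 in 3 of 4 (up to 0.0836), and a second Bag4 probe averaged 0.15. Bag2, an inhibitor of the ubiquitin ligase that acts on HSP70 clients, had log2 ratios of 0.33, -0.22, 0.76 and 0.75. Over both days Bag2 rose by 0.41 (adjusted p = 0.0387), a call kept in 1 of 4 fits with an array left out (adjusted p-values of 0.0190 to 0.118). Bag2 rose by 0.76 at day 8 (adjusted p = 0.0346) and averaged 0.06 at day 5 (adjusted p = 0.823).

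Small heat shock proteins hold unfolding proteins without ATP. Of the 7 genes placed in this family by an Hspb symbol, and not by function, 2 rose and 2 fell. The shares over all genes with a symbol were 13.1% rising and 21.6% falling. Hspb1, known as HSP25 in mice, rose by 0.87 (log2 ratios of 1.02, 0.66, 1.00 and 0.81, SE 0.08, adjusted p = 0.00335). Hspb6 rose by 0.30 (0.19, 0.45, 0.23 and 0.31, adjusted p = 0.027). Hspb2 and Hspb11 fell by 0.27 and 0.26 (adjusted p = 0.0477 and 0.02). The calls of Hspb6, Hspb2 and Hspb11 each stood in at most 1 of 4 fits with an array left out, and a second Hspb2 probe averaged 0.03. Hspb8, the partner of Bag3, had log2 ratios of 0.24, 0.16, 0.12 and -0.46 and did not pass (adjusted p = 0.931).

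The cytosolic chaperonin, a double ring of related subunits that folds actin and tubulin, moved as a set of small rises. Of 9 Cct genes measured, 8 rose, by 0.21 to 0.47, and all 8 were higher in the treated pool on every array, a pattern found in 26.4% of all genes and in 22.7% of those with a symbol. Cct6a rose by 0.47 (log2 ratios of 0.29, 0.75, 0.31 and 0.53, adjusted p = 0.0226), Cct8 by 0.36 (0.30, 0.50, 0.16 and 0.49, adjusted p = 0.027) and Cct5 by 0.36 (0.39, 0.45, 0.20 and 0.39, adjusted p = 0.0114). Cct6b, a second gene for the zeta subunit known from the testis, rose by 0.46 (0.50, 0.51, 0.43 and 0.38, SE 0.05, adjusted p = 0.00409). The exception was Cct8l1, a chaperonin-like gene near the detection limit, at -0.11 (adjusted p = 0.204). Tcp1, the subunit that the symbol rule leaves out, rose by 0.36 (0.26, 0.45, 0.18 and 0.57, adjusted p = 0.0312). Cct6a, Cct8 and Tcp1, unlike Cct6b, had higher ratios in both replicates 2 than in both replicates 1, and so split by dye orientation. The direction held on every array, but the calls depended on all 4: 1 of 9 rose without either replicate 2, while leaving out replicate 1 gave 3 rises where it was the day 5 array and 5 where it was the day 8 array. With median centring 0 of 9 passed. Cct6b was the gene that kept its call in all 4 of these fits (adjusted p up to 0.0273). Of the 9 chaperonin partners listed, which were Tcp1, the prefoldins that deliver clients to the ring and the phosducin-like and thioredoxin-like cofactors, Pfdn4 also rose (0.31, adjusted p = 0.0479) and the other 7 did not pass. Neither Tcp1 nor Pfdn4 kept its call without day 5 replicate 1, without either replicate 2, or with no background subtraction.

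In the mitochondrion, the lid subunit Hspe1 (HSP10) rose and the barrel subunit Hspd1 (HSP60) did not pass on its brightest probe. Hspe1 had log2 ratios of 0.58, 0.41, 0.25 and 0.38 and rose by 0.41 (SE 0.06, adjusted p = 0.00886). Hspd1 had log2 ratios of 0.27, -0.01, 0.25 and 0.28 and a mean of 0.20 (SE 0.06, adjusted p = 0.0798). A second Hspd1 probe averaged 0.29. With the mean of all its probes Hspd1 rose by 0.24 (adjusted p = 0.0422), and it also passed without background subtraction and with the replicate block. The difference between the 2 subunits was not tested. Other genes of mitochondrial protein import and quality control did not follow Hspe1: of 12 measured, 1 rose and 4 fell, with a median of -0.02. Among all genes with a symbol 13.1% rose and 21.6% fell. The exchange factors of mitochondrial HSP70 both fell, Grpel2 by 0.52 (adjusted p = 0.0104) and Grpel1 by 0.27 (adjusted p = 0.02), as did the protease Htra2 by 0.53 (adjusted p = 0.0113) and the iron-sulfur cluster J protein Hscb by 0.28 (adjusted p = 0.0146). With any 1 array left out 2 of the 12 fell. The mitochondrial HSP90 Trap1 and the proteases Lonp1 and Clpp did not pass.

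**Figure D4:**
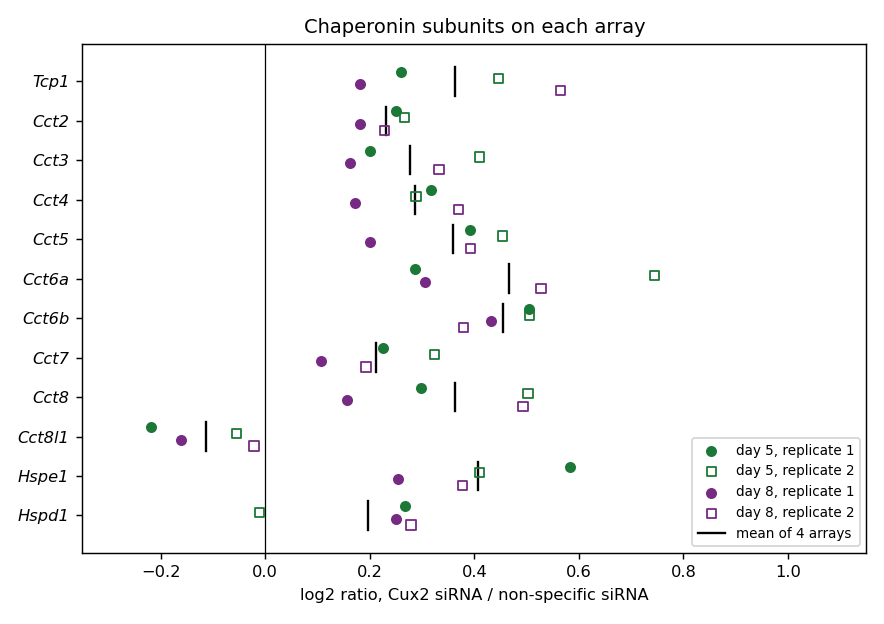
Log2 ratios, Cux2 siRNA over non-specific siRNA, on each of 4 arrays (symbols by day and replicate) and their mean (vertical bar) for Tcp1, 9 Cct genes and the mitochondrial subunits Hspe1 and Hspd1. Tcp1 and Cct2 to Cct8 lie right of 0 on every array, whereas Cct8l1 lies left of 0 on every array.

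The ER chaperones, which answer mainly to the unfolded protein response, were split. Of 15 measured, 4 rose and 6 fell over both days, with a median of -0.09. Among all genes with a symbol 13.1% rose and 21.6% fell. Hspa5, the ER HSP70 known as BiP, rose by 0.60 (log2 ratios of 0.51, 0.62, 0.66 and 0.60, adjusted p = 0.0028), and the secreted ER stress protein Manf rose by 0.73 (adjusted p = 0.00254). Among the falls, the protein disulfide isomerases Pdia6 and P4hb fell by 0.90 and 0.70 (adjusted p = 0.00977 and 0.00185), and Dnajc3, an ER J protein, fell by 0.53 (adjusted p = 0.00781). Hsp90b1, the ER HSP90, averaged -0.09 and did not pass (adjusted p = 0.253). When any 1 array was left out, 3 to 4 of the 15 rose and 3 to 6 fell.

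**Figure D5:**
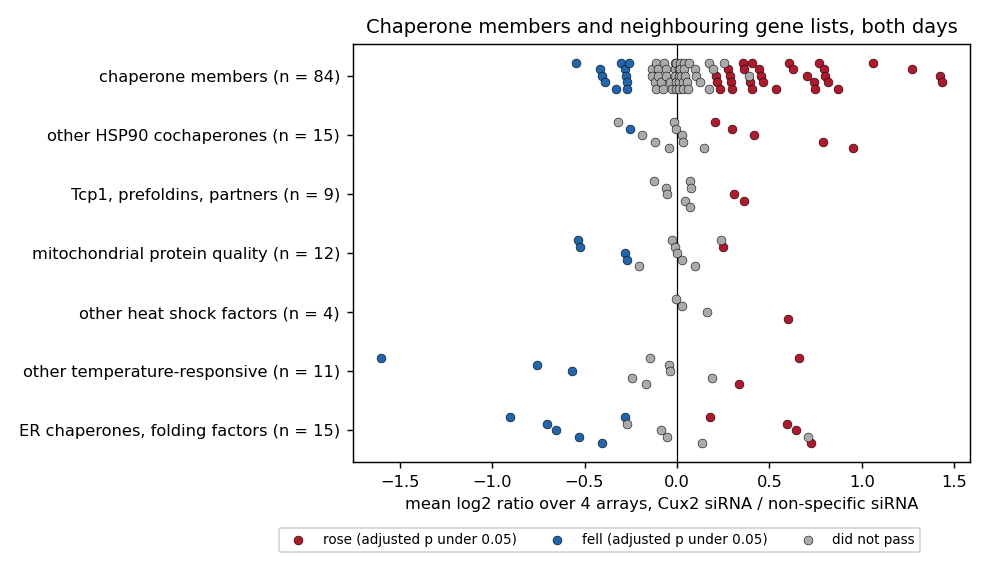
Each point is 1 gene placed by its mean log2 ratio over 4 arrays, Cux2 siRNA over non-specific siRNA, for the 84 chaperone members and 6 neighbouring gene lists, coloured by whether it rose, fell or did not pass at an adjusted p under 0.05. The other HSP90 cochaperones hold 5 rises of 15, while the ER chaperones and the other temperature-responsive genes have points far to both sides of 0, the lowest being Cirbp at -1.60.

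By day, 16 chaperone genes rose and 4 fell at day 5, when 16.8% of all genes passed (7.38% rising, 9.42% falling) and 19.4% of those with a symbol (6.7% rising, 12.7% falling). At day 8, 14 rose and 4 fell, when 14.3% of all genes passed (6.28% rising, 8.06% falling) and 16.3% of those with a symbol (5.42% rising, 10.9% falling). On both single days and over both together, 13 members rose and 3 fell. The day 5 medians of the members and of all genes were 0.10 and 0.00, and those of day 8 were 0.04 and 0.00. The day 8 count of rises was 0 without day 8 replicate 2 and 4 without day 8 replicate 1, and the day 5 count was 2 without day 5 replicate 2 and 7 without day 5 replicate 1. A day that has lost an array rests on 1 array, whose spread is taken from the other day.

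No chaperone gene differed between the days in the limma fit after adjustment over all genes, and neither did any of the 25095 genes (0 passed, 0%). At an unadjusted p under 0.05 there were 2 members of 84, against 621 of all genes (2.47%). Bag2 was 0.70 higher at day 8 than at day 5 (SE 0.20, limma unadjusted p = 0.0192) and Dnajc18 was 0.31 lower (unadjusted p = 0.0231). The largest differences upward were Bag2 and Dnajc25 (0.23), and the largest downward were Hspa1b (-0.46) and Hsp90aa1 (-0.37). Hsph1, Chordc1, Fkbp4 and Stip1 differed by -0.26, -0.14, -0.15 and -0.12, and none of these passed.

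Markers of other liver cells moved beside these genes. The counts below stand beside 13.1% rising and 21.6% falling among all genes with a symbol. Of 11 Kupffer cell and macrophage markers 8 fell and none rose, and their summed intensity was 43097 to 69001 in the treated pools against 83356 to 91252 in the controls. Of 9 stellate cell and fibroblast markers 6 fell and 2 rose, with sums of 35542 to 52021 in the treated pools against 63063 to 66574 in the controls. Neutrophil markers fell in 4 of 7, with a median of -0.56. Their sums were 2049 to 3595 in the treated pools against 11971 to 16981 in the controls. Lymphocyte markers fell in 4 of 11 and rose in 1, with a median of -0.08. Their sums were 2368 to 2891 in the treated pools against 3592 to 4339 in the controls. A sum is weighted towards the brightest probes, and 3 of the 7 neutrophil and 6 of the 11 lymphocyte markers did not pass. Endothelial markers fell in 4 of 8 and rose in 1, while their sums overlapped, at 55374 to 60172 in the treated pools against 52954 to 57629 in the controls, and 1 of 8 fell without either replicate 2. Of 7 hepatocyte markers 1 rose and 2 fell, and their sums, 692172 to 911929 in the treated pools, overlapped those of the controls, 640316 to 976842. Their median of 0.02 averages over arrays of opposite sign (0.19, -0.29, 0.31 and -0.40), which split by replicate number and so by dye orientation, and it was -0.25 or -0.29 without one of the replicates 1 and 0.18 or 0.21 without one of the replicates 2. Exocrine pancreas markers had median log2 ratios of -2.60, -3.94, 0.48 and -3.69, so day 8 replicate 1 stood apart in them. On that array Hsp90aa1, Hsph1 and Chordc1 had their lowest log2 ratios, 1.01, 1.21 and 0.90, while that of Hspa8, 1.26, lay among the others. Without it the means over both days were 1.53, 1.49 and 1.25 for Hsp90aa1, Hsph1 and Hspa8, the call of Chordc1 over both days stood (adjusted p = 0.00701), and the day 8 value of Hsp90aa1 was 1.46 in place of 1.23. The part of cell composition in the chaperone ratios was not tested.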

How the data were processed

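RNA was extracted with Trizol, amplified as aminoallyl antisense RNA and labelled with Alexa 555 or Alexa 647, per the labels' protocols. The deposited intensity values used here are median spot and local background signals from the scanner software, named in the file headers as Feature Extraction 10.7.1.1. The processed intensity values, background-subtracted and dye-normalized by that software per the file headers, and the authors' deposited log10 ratios served as alternatives. The authors' log10 ratios equalled the scanner's within 1e-05 for 45018 features per array once turned to treated over control, and each column had a median of 0. The deposited p-value per spot entered no test.

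Background was corrected by normexp (offset 50) in limma 3.58.1 under R 4.3.3, and ratios were normalized by loess with 1639 control spots at weight 0. Outlier spots (99 to 204 per array) were left out, and spots were averaged per probe. Probes were named by RefSeq accession (23374 of 41174 matched), and no gene symbol column was used. Of several kept probes of a gene (37 members) the brightest stood for it. Dnajb7, not well above background in any control channel, has only a bound there. Ratios were turned by the dyes in the labels. One limma model gave each day's mean, the mean over both days and the difference between days. Its residual degrees of freedom were 2, with a further 2.78 from the prior. The number of arrays limits the precision, and p-values measure the spread between arrays. In that spread, differences between treated pools cannot be told apart from dye orientation, and the control pools recur.

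The members, lists, tests and alternatives were chosen with earlier results of these data known, so the counts are descriptions. The genes named are the fixed ones (Hspa8, Hsp90aa1, Hsph1, Hspa1a, Hspa1b, Hspa9, Hsp90ab1, Hspd1, Hspe1, Dnaja1, Dnajb1, Hspb1, Bag3, Hsf1, Stip1, St13, Ahsa1, Chordc1, Fkbp4) and, in each family, up to 4 of the largest changes that passed and went the same way on all 4 arrays, with the largest fall. Other members (Hspa4, Hspa12a, Bag2, Dnajb6, Dnaja3, Hspb8, Cct8l1, Dnajc1, Dnajc2, Dnajc5, Dnajc6, Dnajc18 and Dnajc22) and the genes named from the neighbouring lists were chosen after their values were seen.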

Additional observations from a re-analysis of the deposited data

How the results depend on the processing

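Of 33 named members called over both days, all 33 kept their direction under the 12 alternatives, and 17 kept the call under each one other than median centring, which left Hsph1 called (adjusted p = 0.0402). With median centring 269 genes passed over both days (32.3% rising, against 47.6% with loess), 5 at day 5 and 3 at day 8, and of the members 1 rose over both days, 0 rose on either day and 0 fell. With the scanner's processed signals 2028 genes passed at day 5 and 1476 at day 8, with 55.6% of those over both days rising, and with the authors' log10 values 2015 and 1467 (55.7%). Under either, 3 members fell over both days, 1 at day 5 and 0 at day 8, and the member medians were 0.10, 0.16 and 0.079 for both days, day 5 and day 8. Without background subtraction 2105 genes passed at day 8 and 1 member fell there. With the replicate block 8240 genes passed at day 5 and 7454 at day 8, and of the members 31 rose and 10 fell at day 5 and 28 rose and 8 fell at day 8. The replicate number is the dye orientation, and same-numbered arrays deviated together (correlation 0.50 over 25091 genes), so this is no evidence of pairing. With 1 array left out, the genes that passed numbered 3903 to 5469 over both days, 246 to 3567 at day 5 and 137 to 2498 at day 8. Members that rose then numbered 15 to 23 over both days, 2 to 16 at day 5 and 0 to 13 at day 8, members that fell 3 to 6, 0 to 4 and 0, and the day 8 member median was 0.035 to 0.087. The causes were not tested. No gene passed for the difference between days under any alternative.

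Changes of sign concerned genes that did not pass. St13 at day 5 was 0.042 without background subtraction and 0.035 with the processed signals or the authors' values, and over both days it was -0.0035 with median centring. Hsp90ab1 at day 8 was 0.033 without background subtraction and 0.090 with the mean of all probes, and Hsf1 at day 5 was -0.023 with median centring. With 1 array left out, the day 5 values ranged from -0.28 to 0.62 for Hspa1a, -0.019 to 0.33 for Hsp90ab1, -0.011 to 0.27 for Hspd1, -0.028 to 0.054 for Hsf1 and -0.13 to 0.12 for St13. The day 8 values ranged from -0.46 to 0.63 for Hspa1a, -0.31 to 0.048 for Hspa1b, -0.15 to 0.086 for Hsp90ab1, -0.020 to 0.12 for Hsf1 and -0.057 to 0.11 for St13. Over both days the ranges were -0.15 to 0.40 for Hspa1a, -0.057 to 0.25 for Hspa1b, -0.026 to 0.15 for Hsp90ab1, -0.0037 to 0.064 for Hsf1 and -0.054 to 0.072 for St13.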
